A study of Mus musculus with 2 samples.

Results

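The Fanconi and recombination repair genes are 34 genes of interstrand crosslink repair and homologous recombination, taken by name from a gene table of 55401 genes, and all 34 were found there. Their RNA was measured in single cells of the small intestinal epithelium, together with open chromatin at their promoters in the same cells. The 34 genes formed 7 groups by role, namely the Fanconi core complex, the FANCD2 and FANCI pair, the BRCA group, the filament factors with the RAD54 proteins, nucleases, helicases, and the pair Polq and Neil3. The list is one of gene names, and its rule sets no limit on a measured value. It was chosen with earlier results of these data known.

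The cells came from 1 mouse, 55 weeks old, that carried a mutation in TrnA, the alanine tRNA gene of the mitochondrial DNA (mtDNA), at a mutation load of 73%. RNA and open chromatin (ATAC) were read from the same cells in a library each, so that both are listed over 1 set of 12363 cell barcodes. The cells were released with EDTA and TrypLE, sorted after staining for CD326, an epithelial surface protein, and for CD45, CD31 and TER-119, which mark blood and vessel cells, and fixed with formaldehyde. The gates are not stated in the sources used here, no other animal was analysed here, and every cell shares the genotype and age, so nothing below separates the mutation from other features of this mouse.

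After filtering, 9872 cells remained, with a median of 1547 nuclear-encoded unique molecular identifiers (UMIs, which count RNA molecules) per cell. Cells were grouped into classes by their RNA, with the 34 genes and the mtDNA genes held out, and named from marker lists as stem-like (378 cells), S-phase-like (304), mitotic-like (469), goblet-like (1493), Paneth-like (290), enteroendocrine-like (214), tuft-like (100) and enterocyte-like (2621). A further 3471 cells, 504 progenitor cells and 28 T-cell-like cells stood in none of these classes. The classes differed in depth, from a median of 1034 nuclear-encoded UMIs in enterocyte-like cells to 3355 in mitotic-like cells. RNA levels below are therefore summed UMIs per 1000000 nuclear-encoded UMIs of a class (CPM), and promoter levels are fragments per 1000000 fragments in peaks. Intervals are exact 95% intervals of counting error, because 1 animal allows no replicate error and no test of a difference. The names came from these marker lists, so the list sums describe the classes and are no check of the names. The stem list summed to 13750 CPM in stem-like and 1077 in enterocyte-like cells, and the enterocyte list to 3346 and 38240. The goblet list stood at 55900 in goblet-like and at 5416 in enterocyte-like cells, and the part of free RNA and doublets in this was not tested. Of the members, 18 overlap the span of another RefSeq gene, such as Fanca with Zfp276, Fancd2 with Fancd2os and Fanci with Polg, and reads there may belong to either gene.

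The Fanconi pathway removes covalent links between the strands of DNA that block a replication fork. A core complex with the ubiquitin ligase FANCL places ubiquitin on FANCD2 and FANCI, nucleases then cut the crosslink free, and the resulting break is repaired by homologous recombination, to which BRCA1, PALB2 and BRCA2 contribute. In the intestine these proteins act mainly where cells divide, in the crypts, where stem cells marked by Lgr5 and their fast-cycling daughters lie, while the absorptive enterocytes of the villus no longer divide.

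The promoters of 5 members were printed because their genes had the highest RNA ratios of S-phase-like to stem-like cells (Fancb, Neil3 and Polq) or of mitotic-like to S-phase-like cells (Eme1, Fanci and again Neil3), among members with a RefSeq promoter entry and at least 20 UMIs. The mitotic-like to S-phase-like ratios of Fanci and Neil3 were close to even and turned sign under at least 1 alternative. Each sequence runs 5′ to 3′ on the gene's strand over 250 bases before and 50 bases after the gene start, from RefSeq on GRCm38.p6. Capitals mark matches to 3 kinds of motif, searched on both strands: the E2F-type words TTTCCCGC, TTTGGCGC and GGCGGGAA, the CHR word TTTGAA, and the CCAAT box.
Fancb promoter, chrX:164980342-164980641, plus strand: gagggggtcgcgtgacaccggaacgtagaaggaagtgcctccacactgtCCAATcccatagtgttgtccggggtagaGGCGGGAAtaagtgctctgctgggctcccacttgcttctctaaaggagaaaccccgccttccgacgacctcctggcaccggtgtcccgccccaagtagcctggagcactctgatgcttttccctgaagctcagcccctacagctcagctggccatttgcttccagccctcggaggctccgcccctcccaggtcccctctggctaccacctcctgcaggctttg
Neil3 promoter, chr8:53639016-53639315, minus strand: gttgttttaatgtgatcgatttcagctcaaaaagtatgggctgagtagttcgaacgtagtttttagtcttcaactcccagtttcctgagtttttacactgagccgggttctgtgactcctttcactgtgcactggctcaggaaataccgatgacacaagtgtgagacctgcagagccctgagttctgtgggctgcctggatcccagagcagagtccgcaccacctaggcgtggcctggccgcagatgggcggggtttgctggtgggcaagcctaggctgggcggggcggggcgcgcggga
Polq promoter, chr16:37011536-37011835, plus strand: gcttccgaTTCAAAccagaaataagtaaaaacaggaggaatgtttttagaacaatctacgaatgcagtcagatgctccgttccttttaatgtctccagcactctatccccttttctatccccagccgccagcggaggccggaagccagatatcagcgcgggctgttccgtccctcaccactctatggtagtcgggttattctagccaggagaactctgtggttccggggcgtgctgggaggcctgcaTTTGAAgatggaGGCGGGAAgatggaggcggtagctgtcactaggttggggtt
Eme1 promoter, chr11:94653694-94653993, minus strand: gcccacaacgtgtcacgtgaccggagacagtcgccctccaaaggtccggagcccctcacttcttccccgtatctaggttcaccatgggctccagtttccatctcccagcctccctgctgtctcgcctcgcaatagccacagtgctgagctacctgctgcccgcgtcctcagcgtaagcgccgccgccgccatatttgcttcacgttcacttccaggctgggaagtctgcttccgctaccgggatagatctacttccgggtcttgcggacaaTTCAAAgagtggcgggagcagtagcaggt
Fanci promoter, chr7:79392088-79392387, plus strand: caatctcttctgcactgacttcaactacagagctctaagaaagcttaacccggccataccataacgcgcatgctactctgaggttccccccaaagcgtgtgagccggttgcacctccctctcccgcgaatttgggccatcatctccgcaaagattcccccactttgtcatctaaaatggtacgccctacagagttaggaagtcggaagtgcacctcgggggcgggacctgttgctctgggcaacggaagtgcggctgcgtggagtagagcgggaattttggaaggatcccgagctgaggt

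Fancb held GGCGGGAA and CCAAT, Polq held GGCGGGAA and TTTGAA on both strands, Eme1 held TTTGAA on the other strand, and Neil3 and Fanci held none of these words in this window. An E2F-type word lay in the promoters of 7 of the 27 members with an entry, or 25.9%, namely Bard1, Brca2, Fancb, Fancg, Fancm, Polq and Rad51c. Over all 32851 promoters of the same length the share was 3.21%, and over genes 3.69%. The CHR word was found in 4 of the 27 members (14.8%) against 20.2% of genes and 17.9% of promoters, and the CCAAT box in 15 (55.6%) against 41.1% and 37.4%. A match is a description of letters and not of binding.

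As a whole, the 34 genes were highest in S-phase-like cells. Their summed RNA was 4300 CPM there (95% interval 4173 to 4431), 2922 in mitotic-like cells (2843 to 3003) and 1530 in stem-like cells (1455 to 1608). In the secretory classes it was 1007 in tuft-like cells, 916 in Paneth-like cells, 817 in goblet-like cells and 809 in enteroendocrine-like cells. Enterocyte-like cells had the lowest sum, 310.1 CPM (294 to 327). The intervals of the progenitor classes did not overlap with each other or with those of the mature classes, while those of tuft-like and Paneth-like cells overlapped, as did those of enteroendocrine-like cells with the Paneth-like and goblet-like ones. The place of stem-like cells above all mature classes depended on how progenitors were split. With a per-cell score in place of sub-clusters, their sum was 909.8 CPM, under the 1007 of tuft-like and near the 916 of Paneth-like cells. Rad51b alone gave 1214 of the 4300 CPM in S-phase-like cells, and without it the order of the 3 progenitor classes was kept, at 3086 in S-phase-like, 2132 in mitotic-like and 1023 in stem-like cells.

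**Figure D1:**
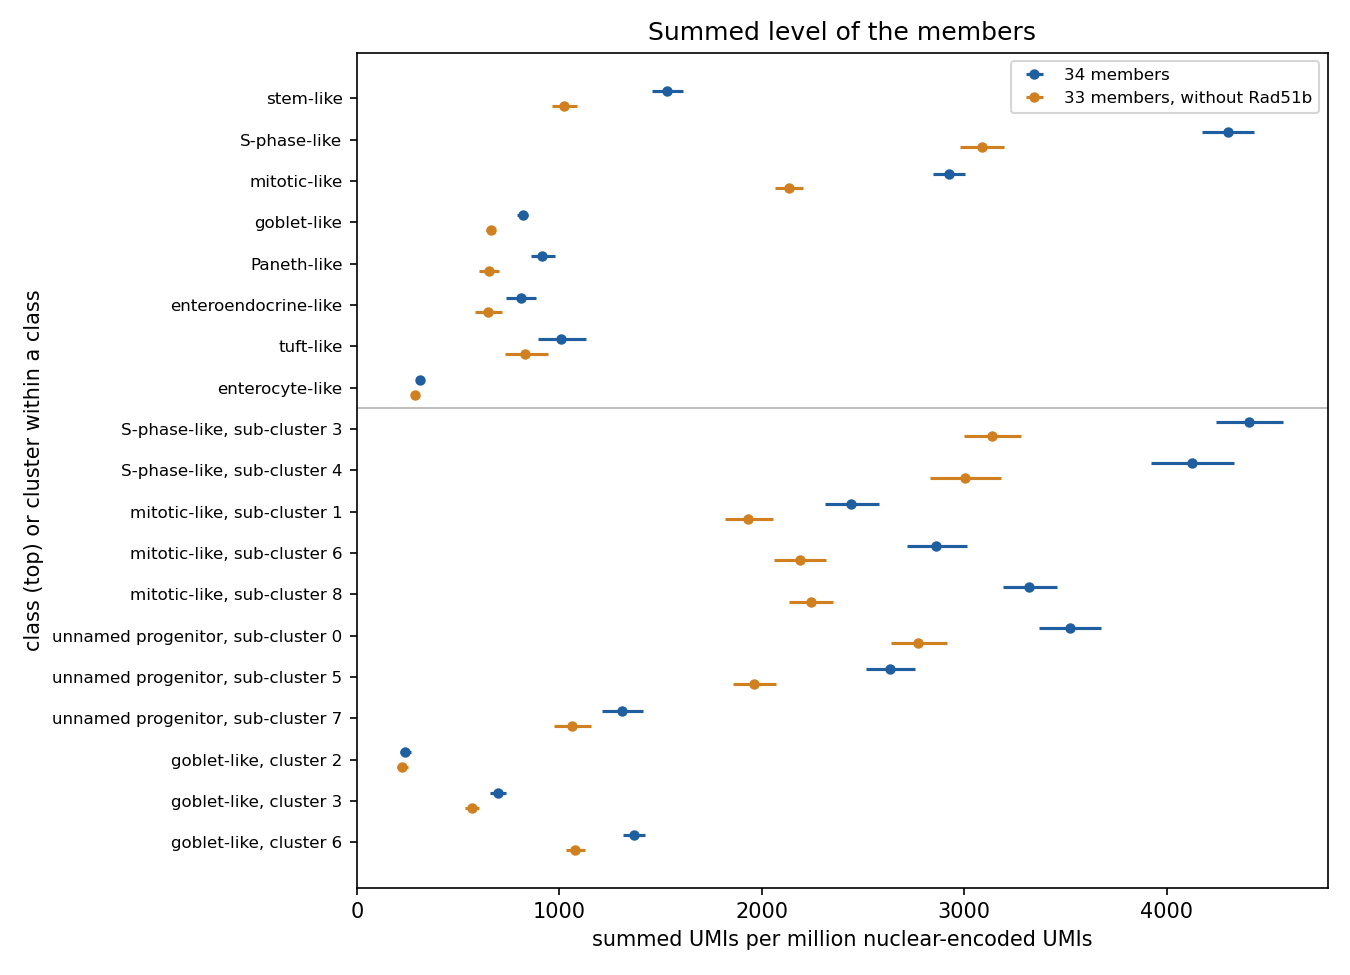
Summed RNA of the 34 members, and of the 33 without Rad51b, in CPM (UMIs per 1000000 nuclear-encoded UMIs) by class and by cluster within a class, with exact 95% intervals of counting error. S-phase-like cells stand highest at 4300 CPM and enterocyte-like cells lowest at 310.1, and the goblet-like clusters range from 239 to 1368.

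The clusters within a class differed as well. Of the S-phase-like sub-clusters, the one whose leading genes included Pou2f3, Kit and E2f1 stood at 4407 CPM and the one with Ccne2 and Cdc6 at 4124. The mitotic-like sub-clusters stood at 2441 (leading genes including Hmmr, Enpep and Car4), 2862 (Cdc25b, Plk1 and Cdc20) and 3321. The last, with leading genes including Cep112, Psrc1, Gas7 and Cdc25c, also held stem markers. Against the other progenitor sub-clusters, its median log2 ratio was 0.58 over the stem list and 0.74 over the mitotic list. The part of this in the mitotic-like to stem-like ratios was not tested. Of the progenitor sub-clusters that received no name, the highest, whose leading genes included Ros1, E2f7, Rrm2 and E2f8, stood at 3520. Goblet-like clusters spread most, with 239, 696 and 1368 CPM. The summed S-phase markers of those goblet-like clusters were 511, 1089 and 1774 CPM and their mitotic markers 714, 1819 and 3567, in the same order, and their part in the members' levels was not tested. The cluster at 696 had a median doublet score of 0.164, and doublets were not removed because the caller marked 0 of 9872 cells. The summed markers of the S-phase list were 6965 CPM in S-phase-like, 2498 in mitotic-like, 3140 in stem-like and 612 in enterocyte-like cells, with 0 of the 44 markers at 0 in enterocyte-like cells.

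Taken gene by gene, 26 of the 34 members had their highest level in S-phase-like cells, against 15.2% of 14079 nuclear genes. Among these 26, the order against mitotic-like cells turned for Fance, Ube2t, Fancd2 and Xrcc3 under at least 1 alternative. The interval included an even ratio for these and for Fancb, Fancc, Palb2, Brip1 and Xrcc2. The order against stem-like cells turned for Fancc and Fance under at least 1 alternative. Another 5 were highest in mitotic-like cells, against 11.9% of the nuclear genes, namely Fancf, Fanci, Eme1, Neil3 and Polq. For each of these 5, the interval of the S-phase-like to mitotic-like ratio included an even ratio. Fancf rested on 2 UMIs in S-phase-like and 10 in mitotic-like cells. The order turned for Fanci and Neil3 under at least 1 alternative. The remaining 3 were Rad51d, highest in stem-like cells (36 UMIs against 33 in S-phase-like cells, an order that turned under at least 1 alternative), Mus81, highest in tuft-like cells on 2 UMIs, and Slx4, highest in enterocyte-like cells.

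**Figure D2:**
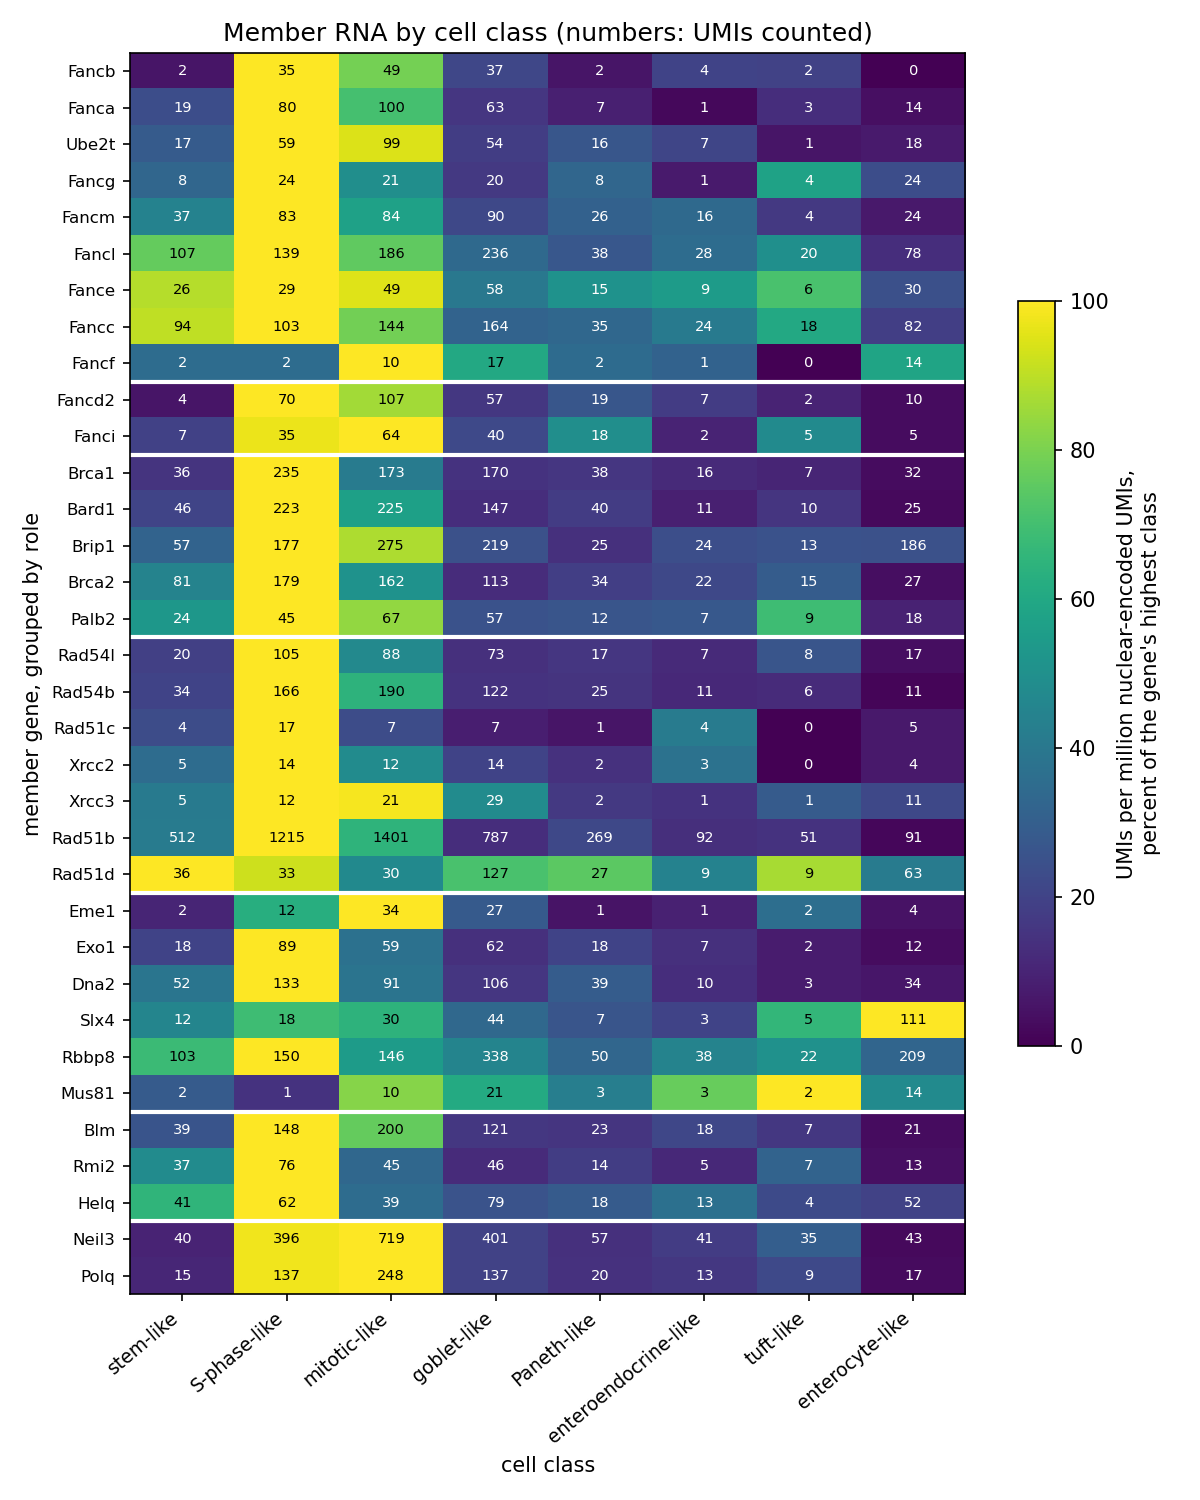
RNA of each member (lines, grouped by role) in each of the 8 classes (columns), coloured by its level as a percentage of the gene's highest class, with the number of UMIs written in each cell. Most members are brightest (yellow, 100%) in S-phase-like cells, while Rad51d, Mus81 and Slx4 are brightest in stem-like, tuft-like and enterocyte-like cells.

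The question of which members differ between stem-like and S-phase-like cells was put to 29 members that reached 20 UMIs over both classes. Of these, 21 were counted as higher in S-phase-like cells, by 2-fold or more, and 0 as lower, where 5.16% of 9530 nuclear genes were counted as higher and 3.42% as lower. The median log2 ratio was 1.65 over the members and 0.01 over all genes. The mitotic marker list also stood higher in S-phase-like than in stem-like cells, with 37 of 40 tested markers counted as higher and a median of 2.40, and its part in the members' ratios was not tested. Mitotic-like against stem-like cells gave 15 of 30 members higher and 1 lower, where 5.92% of 10191 genes were higher and 5.25% lower, with a median of 1.08 against 0.00. Between the cycling classes, 9 of 32 members were higher in S-phase-like than in mitotic-like cells and 0 lower, where 3.58% of 10141 genes were higher and 3.19% lower. That count was 3 when progenitors were split by a per-cell score in place of sub-clusters, and 6 without the mitotic-like sub-cluster that had the fewest S-phase markers.

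**Figure D3:**
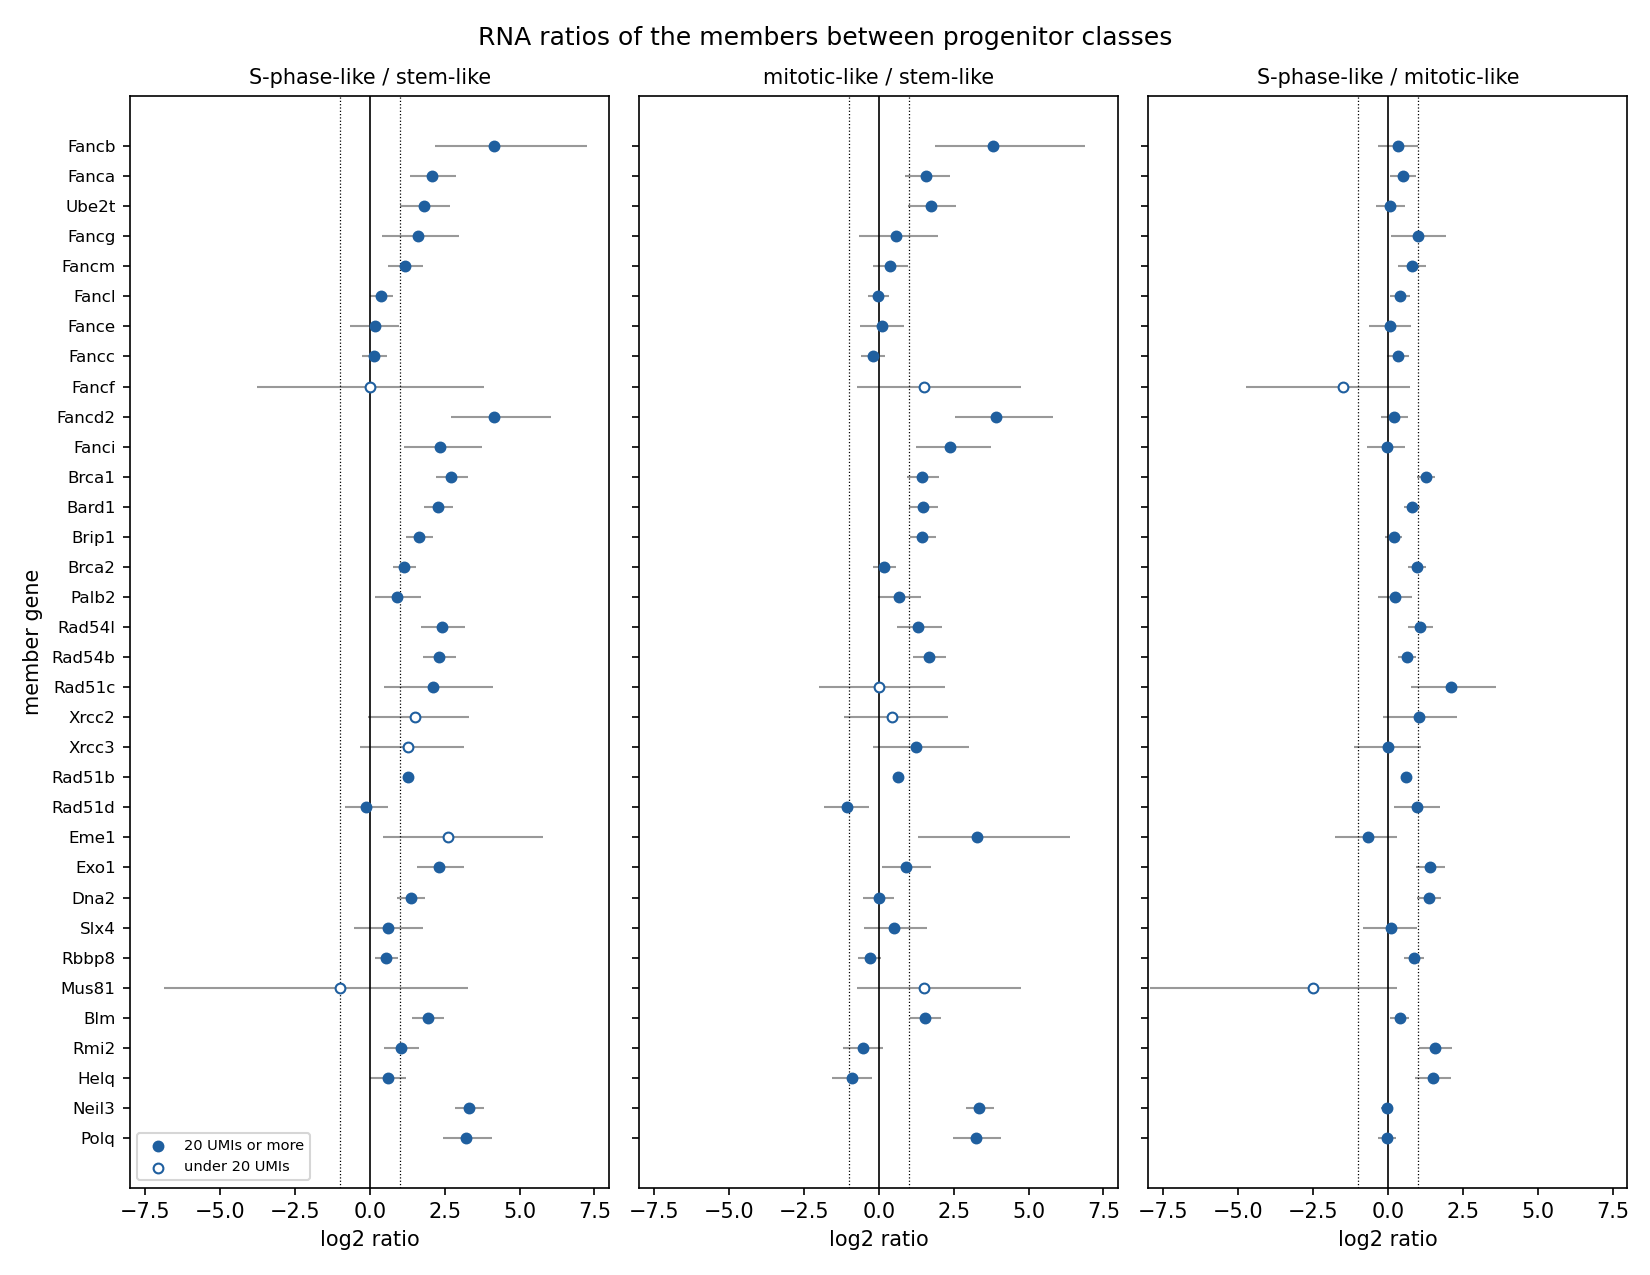
Log2 ratio of RNA in CPM for each member between S-phase-like and stem-like, mitotic-like and stem-like, and S-phase-like and mitotic-like cells, with exact 95% intervals of counting error. Open points had under 20 UMIs over both classes and dotted lines mark 2-fold. Fancb and Fancd2 stand highest in the first panel, both at 4.14, and Rad51d lowest in the second, at -1.08.

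The Fanconi core complex, with FANCL as its ubiquitin ligase and UBE2T as the ubiquitin-conjugating partner, summed to 309 CPM in stem-like, 554 in S-phase-like, 418 in mitotic-like and 66.8 in enterocyte-like cells. Its members differed widely. Fancb, an X-linked member of the complex, had 1.98 CPM (2 UMIs) in stem-like, 35.0 (35 UMIs) in S-phase-like and 27.6 (49 UMIs) in mitotic-like cells, 7.41 in goblet-like, 1.97 in Paneth-like, 7.05 in enteroendocrine-like, 6.90 in tuft-like and no UMI in enterocyte-like cells. Both cycling classes were high and every other class low, and its S-phase-like to stem-like log2 ratio was 4.14 (2.18 to 7.24) and its mitotic-like to stem-like ratio 3.80 (1.87 to 6.89). Fanca, a large scaffold of the complex, stood at 18.8, 79.96 and 56.4 in stem-like, S-phase-like and mitotic-like cells, and Fancm, the DNA translocase that anchors the complex, at 36.7, 83.0 and 47.3. Ube2t stood at 16.9, 59.0 and 55.8, so that both cycling classes lay above the stem-like cells. Fancg stood at 7.93, 24.0 and 11.8.

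Fancc, Fance and Fancl were nearly even across the progenitor classes. Fancc had 93.2, 103.0 and 81.2 CPM in stem-like, S-phase-like and mitotic-like cells, with an S-phase-like to stem-like log2 ratio of 0.14 (-0.27 to 0.56) and a mitotic-like to stem-like ratio of -0.20 (-0.58 to 0.19). Fance, which bridges the complex to FANCD2, had 25.8, 29.0 and 27.6, with a first ratio of 0.17 (-0.64 to 0.99). Fancl had 106, 139 and 105, with a first ratio of 0.39 (0.02 to 0.77). The first ratios of Fancc and Fance turned sign under at least 1 alternative. Fancf was too rare to compare, with 2, 2 and 10 UMIs in the 3 progenitor classes. The group therefore held members with ratios from 0.14 to 4.14 among those that reached the minimum.

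FANCD2 and FANCI form the clamp that the core complex ubiquitinates. Their summed level was 10.9 CPM in stem-like, 105 in S-phase-like, 96.4 in mitotic-like and 3.53 in enterocyte-like cells. Fancd2 had 3.96 CPM in stem-like (4 UMIs), 70.0 in S-phase-like (70 UMIs), 60.3 in mitotic-like (107 UMIs), 11.4 in goblet-like, 18.7 in Paneth-like, 12.3 in enteroendocrine-like, 6.90 in tuft-like and 2.35 in enterocyte-like cells. Stem-like cells thus stood within the range of the mature classes and under both cycling classes, and the log2 ratio to stem-like cells was 4.14 (2.72 to 6.06) in S-phase-like and 3.93 (2.53 to 5.83) in mitotic-like cells. Fanci had 6.94, 35.0 and 36.1 in the 3 progenitor classes, with ratios to stem-like cells of 2.33 (1.14 to 3.75) and 2.38 (1.25 to 3.75), and its S-phase-like to mitotic-like ratio was -0.04 (-0.68 to 0.57).

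Fancd2 UMIs were seen in 19.1% of S-phase-like, 19.2% of mitotic-like and 1.06% of stem-like cells, and in 0.382% of enterocyte-like cells. With every cell thinned to 1000 nuclear-encoded UMIs, the shares were 5.26%, 6.61%, 0.542% and 0.295%. The intervals of the thinned stem-like (0.066% to 1.94%) and enterocyte-like (0.080% to 0.753%) shares were wide and overlapped. The median nuclear-encoded UMIs were 2715 in S-phase-like, 3355 in mitotic-like, 2352 in stem-like and 1034 in enterocyte-like cells. The part of depth in the shares before thinning was not tested. Over all members, at least 1 UMI was found in 89.4% of stem-like, 99.0% of S-phase-like and 98.7% of mitotic-like cells, and in 29.5% of enterocyte-like cells. After thinning these shares were 67.8%, 95.4%, 91.5% and 23.8%, and 31.5% of goblet-like, 36.5% of Paneth-like, 31.8% of enteroendocrine-like and 33.3% of tuft-like cells had 1, against 49.6%, 57.9%, 50.5% and 54.0% before thinning. Thinning left out 1264 enterocyte-like, 141 goblet-like, 27 Paneth-like, 38 enteroendocrine-like, 13 tuft-like and 9 stem-like cells as too shallow.

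The BRCA group holds Brca1 and its partner Bard1, which form a ubiquitin ligase at breaks, Palb2 and Brca2, which act in homologous recombination, and Brip1, a helicase that binds BRCA1. It summed to 242 CPM in stem-like, 859 in S-phase-like, 508 in mitotic-like and 67.7 in enterocyte-like cells. Brca1 had 35.7 CPM in stem-like, 235 in S-phase-like, 97.5 in mitotic-like, 34.03 in goblet-like, 37.5 in Paneth-like, 28.2 in enteroendocrine-like, 24.1 in tuft-like and 7.52 in enterocyte-like cells. S-phase-like cells stood apart from all other classes, with a log2 ratio of 2.72 (2.21 to 3.27) to stem-like cells and of 1.27 (0.98 to 1.56) to mitotic-like cells. The stem-like level lay within the range of the secretory classes. Brca1 was seen in 53.0% of S-phase-like, 29.0% of mitotic-like and 7.14% of stem-like cells against 1.07% of enterocyte-like cells, and after thinning in 24.3%, 10.2%, 2.98% and 0.589%.

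Bard1 had 45.6, 223 and 127 CPM in stem-like, S-phase-like and mitotic-like cells. Brip1 had 56.5, 177 and 155, and its level of 43.7 in enterocyte-like cells was close to its 43.8 in goblet-like cells. Brca2 had 80.3, 179 and 91.3, so that stem-like and mitotic-like cells lay near each other, with a log2 ratio of mitotic-like to stem-like cells of 0.19 (-0.21 to 0.59). Under the alternatives, this Brca2 ratio reached 1.23. Palb2 had 23.8, 45.0 and 37.8, and its ratios were under 2-fold in each progenitor comparison with the main classes. Under the alternatives, its log2 ratios to stem-like cells reached 1.77 in S-phase-like and 1.66 in mitotic-like cells.

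The filament factors, Rad51b, Rad51c, Rad51d, Xrcc2 and Xrcc3, act in homologous recombination, and RAD54L and RAD54B are motor proteins of the same route. Rad51b gave most of the UMIs of this group, with 507 CPM in stem-like, 1214 in S-phase-like, 790 in mitotic-like, 158 in goblet-like, 265 in Paneth-like, 162 in enteroendocrine-like, 176 in tuft-like and 21.4 in enterocyte-like cells. All progenitor classes stood above all mature classes, and the S-phase-like to stem-like ratio was 1.26 (1.11 to 1.41) on the log2 scale. The gene spans 550979 bases on GRCm38.p6 (chr12:79297282-79848260), and whether reads in introns were counted is not given in the sources used here, so its large share of the summed UMIs is no measure of its level against that of other genes. Rad51b was seen in 88.8% of S-phase-like, 80.8% of mitotic-like, 55.3% of stem-like and 2.14% of enterocyte-like cells, and after thinning in 67.4%, 50.3%, 32.5% and 1.11%.

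Rad54b stood at 33.7, 166 and 107 CPM in stem-like, S-phase-like and mitotic-like cells, and Rad54l at 19.8, 105 and 49.6. Rad54l was counted as higher in S-phase-like than in mitotic-like cells, at 1.08 (0.66 to 1.51) on the log2 scale. Rad51c was rare, with 4, 17 and 7 UMIs in the 3 classes, or 3.96, 17.0 and 3.94 CPM, and its S-phase-like to mitotic-like log2 ratio of 2.11 (0.76 to 3.62) was the highest of that comparison. Xrcc2, at 5, 14 and 12 UMIs, and Xrcc3, at 5, 12 and 21 UMIs, had too few UMIs over S-phase-like and stem-like cells to be counted there, and the S-phase-like to mitotic-like log2 ratio of Xrcc3 was 0.02 (-1.14 to 1.11). Rad51d did not follow the group. It had 35.7 CPM in stem-like, 32.99 in S-phase-like, 16.9 in mitotic-like, 25.4 in goblet-like, 26.6 in Paneth-like, 15.9 in enteroendocrine-like, 31.04 in tuft-like and 14.8 in enterocyte-like cells. Its mitotic-like to stem-like ratio was -1.08 (-1.83 to -0.34), the only member counted as lower in that comparison, and its S-phase-like to stem-like ratio was -0.11 (-0.84 to 0.61).

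The nucleases and the resection factor RBBP8, also known as CtIP, summed to 187 CPM in stem-like, 403 in S-phase-like, 208 in mitotic-like and 90.3 in enterocyte-like cells. Exo1, an exonuclease that resects break ends, had 17.8, 89.0 and 33.2 CPM in the 3 progenitor classes, and Dna2, a nuclease and helicase of the same step, had 51.5, 133 and 51.3. Both were counted as higher in S-phase-like than in mitotic-like cells, with log2 ratios of 1.42 (0.93 to 1.92) and 1.37 (0.98 to 1.77). Rbbp8 had 102, 150 and 82.3, with ratios to stem-like cells of 0.55 (0.18 to 0.93) in S-phase-like and -0.31 (-0.68 to 0.07) in mitotic-like cells. Eme1, the partner of the nuclease MUS81, had 2 UMIs in stem-like, 12 in S-phase-like and 34 in mitotic-like cells, or 1.98, 12.0 and 19.2 CPM. It had the lowest S-phase-like to mitotic-like ratio of the members counted, -0.68 (-1.76 to 0.31), and a mitotic-like to stem-like ratio of 3.27 (1.31 to 6.38). Mus81 itself was rare, with 2, 1 and 10 UMIs in these classes.

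Slx4, a scaffold for crosslink-cutting nucleases, had 11.9 CPM in stem-like, 17.99 in S-phase-like, 16.9 in mitotic-like, 8.81 in goblet-like, 6.91 in Paneth-like, 5.29 in enteroendocrine-like, 17.2 in tuft-like and 26.1 in enterocyte-like cells. It was the only member whose highest class was enterocyte-like, from 111 UMIs. The log2 ratio of progenitor to enterocyte-like cells was -0.72 (-1.20 to -0.25), from 60 against 111 UMIs, and became 0.23 when UMIs of all kinds were the library size. The ratio of secretory to enterocyte-like cells was -1.60 (-2.08 to -1.13) and stayed negative, at -0.59, on that scale.

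Of the helicases, which unwind and dissolve joined DNA molecules, Blm had 38.6, 148 and 113 CPM in stem-like, S-phase-like and mitotic-like cells. Rmi2, a partner of BLM, had 36.7, 76.0 and 25.4, and Helq, a helicase at stalled forks, had 40.6, 62.0 and 21.98. Rmi2 and Helq had their lowest progenitor level in mitotic-like cells, with S-phase-like to mitotic-like log2 ratios of 1.58 (1.03 to 2.15) and 1.496 (0.89 to 2.11). Their ratios of mitotic-like to stem-like cells were -0.53 (-1.19 to 0.14) and -0.89 (-1.56 to -0.22), and both turned sign under at least 1 alternative.

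Polq, a polymerase that joins break ends by short homologies, and Neil3, a glycosylase that unhooks some crosslinks, summed to 54.5 CPM in stem-like, 533 in S-phase-like and 545 in mitotic-like cells. Neil3 had 39.6 CPM in stem-like, 396 in S-phase-like, 405 in mitotic-like, 80.3 in goblet-like, 56.2 in Paneth-like, 72.2 in enteroendocrine-like, 121 in tuft-like and 10.1 in enterocyte-like cells. Polq had 14.9, 137, 140, 27.4, 19.7, 22.9, 31.04 and 3.997 CPM in the same order of classes. Both genes thus stood about equally high in S-phase-like and mitotic-like cells, with S-phase-like to mitotic-like log2 ratios of -0.03 for Neil3 (-0.21 to 0.15), which turned sign under at least 1 alternative, and -0.03 for Polq (-0.34 to 0.28). Against stem-like cells the S-phase-like ratios were 3.32 (2.85 to 3.83) for Neil3 and 3.20 (2.43 to 4.08) for Polq, and the mitotic-like ratios were 3.35 (2.89 to 3.85) and 3.23 (2.48 to 4.09). Unlike in stem-like cells, where 7.67% held a Neil3 UMI, 60.5% of S-phase-like and 68.7% of mitotic-like cells did, against 0.916% of enterocyte-like cells. After thinning these shares were 4.07%, 33.9%, 32.0% and 0.958%.

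All 34 members could be compared between the 3 progenitor classes together and enterocyte-like cells, which are classes by RNA and not measured positions. Of them, 30 were counted as higher in progenitors and 0 as lower, where 31.0% of 12364 genes were higher and 15.9% lower, with a median log2 ratio of 3.35 against 0.38. The highest ratios were those of Rad54b at 5.32 (4.46 to 6.33), Rad51b at 5.27 (4.97 to 5.59), Fancb at 5.01 with its 0 enterocyte-like UMIs set to a floor of 3 counts (lower limit 4.68), Neil3 at 4.92 (4.48 to 5.39) and Polq at 4.72 (4.03 to 5.52). Slx4, Mus81 at 0.06 (-1.15 to 1.26), Fancf at 0.17 (-1.01 to 1.35) and Rad51d at 0.82 (0.35 to 1.30) were the 4 not counted, and Rbbp8 at 1.10 (0.86 to 1.35) was the lowest that was. The enterocyte-like cells were shallower and had a median of 76.2% of their UMIs from mtDNA, against 54.6% in stem-like, 53.3% in S-phase-like and 53.0% in mitotic-like cells, and the part of this in the ratios was not tested.

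The secretory classes together, against enterocyte-like cells, gave 22 of 33 members higher and 1 lower, where 23.5% of 13322 genes were higher and 10.9% lower, with a median of 1.71 against 0.20. On the log2 scale, Fancb stood at 3.22 against the same floor (lower limit 2.86), Rad54b at 3.21 (2.33 to 4.24), Rad51b at 3.03 (2.72 to 3.35), Fanci at 3.01 (1.71 to 4.68) and Neil3 at 2.94 (2.49 to 3.43). The lowest were Slx4, the 1 member counted as lower, Fancg at -0.23 (-1.03 to 0.59), Fancf at -0.18 (-1.23 to 0.92), Brip1 at -0.10 (-0.37 to 0.18) and Mus81 at 0.36 (-0.61 to 1.39). Rad51c had too few UMIs, 12 against 5. The count of 22 was 6 when the classes were taken from clusters of the ATAC data. Summed mitotic markers were 2159 CPM in goblet-like and 692 in enterocyte-like cells, and their part in these ratios was not tested.

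The 52 other Fanconi and recombination genes, which were not among the 34, showed a smaller count. The members and all other lists were chosen with earlier results of these data known, so differences between lists are descriptions only. Over all nuclear genes, 5.16% were higher and 3.42% lower in the first comparison below, and 31.0% and 15.9% in the second. In S-phase-like against stem-like cells, 10 of 45 were higher and 1 lower, with a median log2 ratio of 0.36, led by Rad51ap1 at 4.01 and Parpbp at 3.92, while Faap20 at -0.65 and Zswim7 at -1.07 were lowest. In progenitors against enterocyte-like cells, 29 of 50 were higher and 0 lower, with a median of 1.29, led by Parpbp at 4.88 and Rad51ap1 at 4.09, and ending at Zswim7, -0.14, and Recql5, -0.17.

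The lists of other repair routes, chosen in the same way, are given beside these in S-phase-like against stem-like cells. Over all 9530 nuclear genes, 5.16% were higher and 3.42% lower. Checkpoint genes, which signal stalled forks, had 4 of 10 higher and a median of 0.72, with Clspn at 2.98, Chek2 at 1.49, Rad1 at 0.25 and Rad9a at 0.13. Base excision genes had 1 of 12 higher and a median of 0.27, with Mbd4 at 2.04, Tdg at 0.66, Lig3 at -0.24 and Ung at -0.40. Mismatch repair genes had 0 of 7 higher and a median of 0.27, with Msh6 at 0.93, Pms2 at 0.62 and Mlh3 at 0.13. All these medians lay under the 1.65 of the members. Nucleotide excision genes had 1 of 18 higher, near the share over all genes, and a median of 0.16. Xab2 stood at 1.60, Gtf2h5 at 0.62 and Xpa at -0.99. End joining genes had 0 of 11 higher, median 0.11, with Xrcc6 at 0.64, Shld2 at 0.48, Nhej1 at -0.43 and Trp53bp1 at -0.63. Translesion genes had 2 of 9 higher, median 0.08, with Rad18 at 2.34, Polh at 1.97, Rev1 at -0.07 and Ube2b at -0.19. None of the 6 lists held a gene counted as lower in this comparison.

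Between progenitors and enterocyte-like cells, 31.0% of 12364 nuclear genes were higher and 15.9% lower. The checkpoint list, with 9 of 10 higher and a median of 2.86, and the mismatch repair list, with 7 of 7 and 2.73, came nearest to the members' 3.35. Timeless and Clspn led the first at 4.12 and 3.65, with Rad9a at 1.93 and Rad17 at 0.84 lowest, and Pms1 and Mlh3 led the second at 3.89 and 3.66, with Msh3 at 1.65 lowest. Base excision had 9 of 17 higher and a median of 1.34, from Mbd4 at 4.37 and Ogg1 at 2.49 to Aptx at -0.69. Translesion had 6 of 9 and 1.46, from Rad18 at 3.61 and Poli at 3.21 to Ube2b at -0.06 and Ube2a at -0.43. Both lay between the members and the lowest lists. Nucleotide excision had 6 of 19, near the share over all genes, and 0.74, from Ddb2 at 2.07 and Ercc2 at 1.59 to Xpa at -0.22 and Cetn2 at -0.25. End joining had 7 of 15 higher, 1 lower and 0.66, from Rif1 at 2.97 and Xrcc5 at 2.42 to Lig4 at -0.15 and Paxx at -1.01.

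Open chromatin at the members' promoters differed far less than their RNA. The same was seen for the S-phase and mitotic marker lists, which had named the classes by their RNA. In S-phase-like against stem-like cells, their median log2 ratios were 1.21 and 2.40 in RNA and 0.12 and 0.10 at promoters. A peak within 1000 bases of the gene start, or of the range of listed starts, was found for 33 of the 34, all but Slx4. Of these, 13 shared it with the start of another gene. For Rbbp8 the listed starts ran from 11633276 to 11657429 on chromosome 18, and fragments were summed over 5 peaks there. Between S-phase-like and stem-like cells, 0 of 33 promoters were counted as higher or lower at 1.5-fold, where 3.66% of promoters were higher and 5.05% lower, with a median log2 ratio of 0.13 against -0.02. In mitotic-like against stem-like cells 2 of 33 were higher, Ube2t at 0.61 and Rad54l at 0.60, and 0 lower, where 3.50% of promoters were higher and 10.4% lower. In S-phase-like against mitotic-like cells 0 were higher or lower, where 7.55% of promoters were higher and 2.04% lower.

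In progenitors against enterocyte-like cells 9 of 33 promoters were higher and 0 lower, where 32.5% of all promoters were higher and 8.75% lower, and the median of 0.30 stood beside 0.26 for all. The 9 were Fancg, Brca2, Rad54l, Rad54b, Exo1, Dna2, Rbbp8, Rmi2 and Neil3. Rbbp8 was counted at 1.54-fold from the sum of its 5 peaks over a wide range of starts. When ratios were taken relative to the median promoter peak, 5 promoters were higher. In the secretory classes 4 of 33 were higher, Rad54l, Exo1, Dna2 and Rmi2, and 0 lower, where 26.4% of promoters were higher and 7.18% lower. That count was 1 relative to the median promoter peak and 1 without cells above 80% mtDNA-encoded UMIs. The promoter of Rad54l had 13.9 fragments per 1000000 in stem-like, 17.9 in S-phase-like, 21.1 in mitotic-like, 10.1 in goblet-like, 7.99 in Paneth-like, 18.2 in enteroendocrine-like, 10.1 in tuft-like and 5.79 in enterocyte-like cells. The intervals of Paneth-like cells (23 fragments, 5.06 to 11.99) and tuft-like cells (10 fragments, 4.82 to 18.5) overlapped with that of enterocyte-like cells (4.82 to 6.91), and those of the other classes lay above it. Its progenitor to enterocyte-like ratio was 1.65 (1.34 to 1.97) on the log2 scale. Dna2 followed with 36.7 against 15.3 fragments per 1000000 and 1.26 (1.06 to 1.46), and Rmi2 with 42.5 against 22.7 and 0.91 (0.73 to 1.08). The lowest 3 were Fance at -0.00, Brca1 at 0.02 and Brip1 at 0.03. Brca1 had 88.8 fragments per 1000000 in progenitors and 87.3 in enterocyte-like cells, beside an RNA ratio of 3.96. The promoter peaks of Brca1 also hold the start of Nbr1 and that of Brip1 the start of Brip1os, and fragments there were not divided between the genes. Across the 33 genes, the RNA and promoter ratios had a Pearson r of 0.179 and a Spearman rho of 0.170, as a description over genes that share both libraries and their depth.

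**Figure D4:**
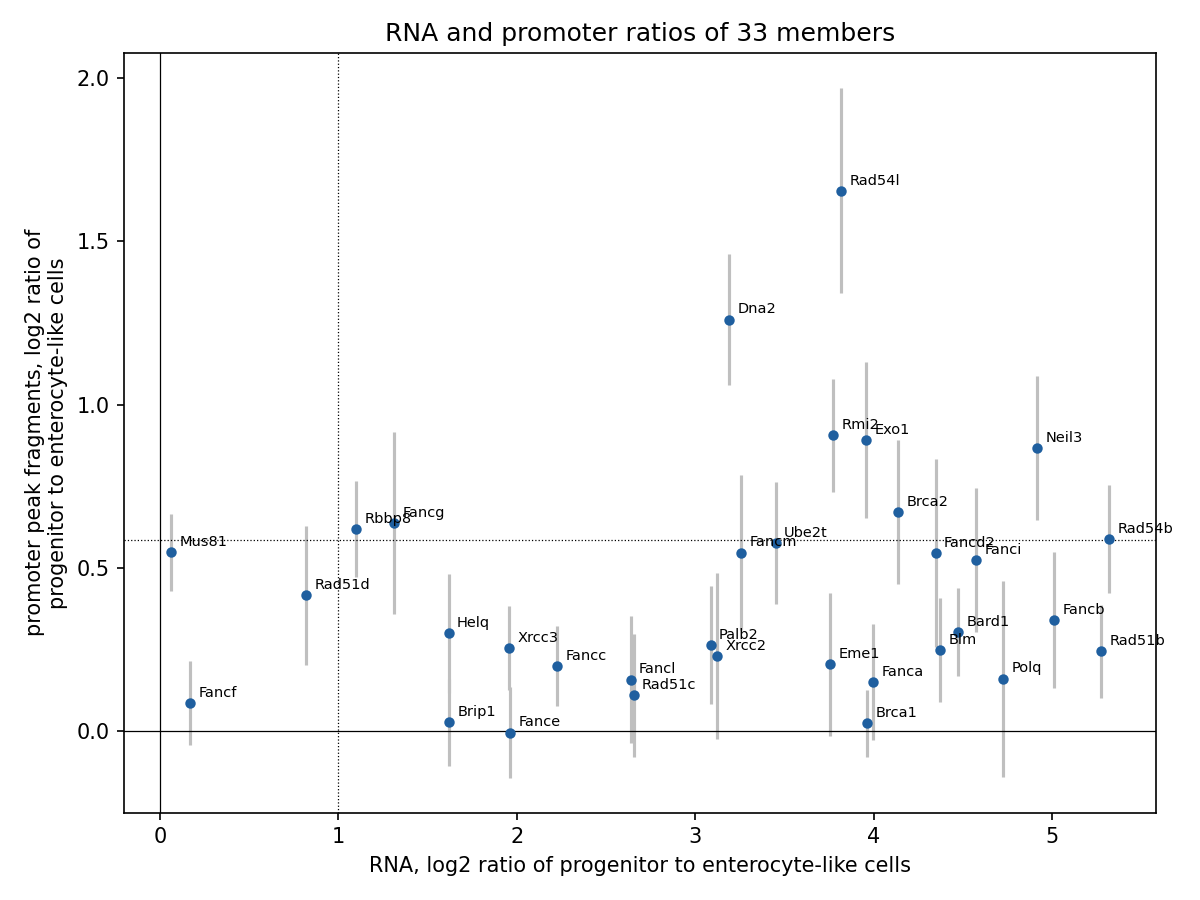
Log2 ratio of RNA (horizontal) and of promoter fragments (vertical) between progenitor and enterocyte-like cells for the 33 members with a promoter peak. RNA ratios reach 5.32 while promoter ratios stay between -0.00 and 1.65.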

How the data were processed

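The members and lists were chosen with earlier results of these data known. The deposited values were counts: UMIs per gene and cut-site counts per peak, in 1 matrix for both libraries, made with Cell Ranger ARC 2.0.2 on mm10, per the submitters' processing notes. Whether introns and strand were used in counting is not given in the sources used here, and 18 members overlap another gene. Barcodes under 500 UMIs, 300 genes or 1000 peak counts were dropped, leaving 9872 of 12363. Peak counts were halved and rounded up to fragments. Cells were clustered with scanpy 1.11.5 (1500 variable genes, 30 components, Leiden), with 166 repair genes and mtDNA genes held out. The rule that named clusters from marker lists was set after the clusters were seen. UMIs were summed per class and divided by the class's nuclear-encoded UMIs, and genes with at least 20 UMIs over both classes were counted at 2-fold (promoters with 20 fragments at 1.5-fold). A class without UMIs was set to a floor of 3 counts. Members with at least 20 UMIs over the progenitor classes were named with their levels, and the 5 highest and 5 lowest of each comparison with intervals where not already given. PCR and capture were not modelled, so intervals and floors cover counting error only. The ratio rule was run on simulated counts for S-phase-like against stem-like cells only. Those counts held counting error and no spread between cells, so the run cannot show other errors. Values of some genes that the naming rule chose are not reported here.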

Additional observations from a re-analysis of the deposited data

How the results depend on the processing

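Of 120 alternatives, 88 stayed within the set limits and 32 did not. No paired analysis was possible because there was 1 animal, with no replicate animals to pair across groups. At 1.5-fold, 16 members were higher in S-phase-like than in mitotic-like cells and 19 other Fanconi and recombination genes in S-phase-like than in stem-like cells. With a per-cell score that S-phase-like count was 3, and the summed levels were 909.8 CPM in stem-like and 3372 in S-phase-like cells. ATAC clusters gave 6 members higher in secretory cells. Promoters at 2-fold numbered 2 in progenitors and 0 in secretory cells, relative to the median promoter 5 and 1, and without cells above 80% mtDNA 1 in secretory cells. The cause of each was not tested. With UMIs of all kinds as library size, the median of all genes moved to 1.33 in progenitors and 1.22 in secretory cells, 46 other Fanconi and recombination genes were higher in progenitors, and the summed levels were 690.2 (stem-like), 1981 (S-phase-like), 1369 (mitotic-like), 382.4 (goblet-like), 531.3 (Paneth-like), 409.3 (enteroendocrine-like), 451.7 (tuft-like) and 74.3 (enterocyte-like). Without the highest 8% of doublet scores they were 763.7 in goblet-like, 720.3 in enteroendocrine-like, 865.5 in tuft-like and 275.4 in enterocyte-like cells. Thinned shares of cells with a UMI were 67.8%, 95.4%, 91.5%, 31.5%, 36.5%, 31.8%, 33.3% and 23.8% in the same order of classes. Leaving out clusters was chosen after seeing the data. Without the S-phase-like sub-cluster that also held stem markers, 18 of 26 members were higher in S-phase-like than in stem-like cells. Without the mitotic-like sub-cluster of fewest S-phase markers, 16 were higher in mitotic-like than stem-like cells and 6 in S-phase-like than mitotic-like cells. Without the goblet-like cluster of high doublet scores, 22 were higher in secretory cells. Counts under 20 UMIs limit Fancf, Mus81, Xrcc2, Xrcc3, Rad51c and Eme1 at this depth.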
